A study of Homo sapiens with 2 samples.

Results

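The genes described here encode the channels that let calcium into the cytosol and the pumps that take it out again, in C4-2B, a castration-resistant human prostate cancer line of the LNCaP lineage. They are the rows of the deposited table whose symbols name a voltage-gated calcium channel subunit (CACNA, CACNB, CACNG), a TRP channel (TRPA, TRPC, TRPM, TRPV), ORAI, STIM, ITPR, RYR, a calcium pump (ATP2A, ATP2B, ATP2C) or a mucolipin (MCOLN). That rule took 78 of 25343 rows, of which 71 carry the symbol of a channel, sensor or pump gene and 7 are antisense or intronic non-coding transcripts at CACNA loci. One RNA-seq library came from C4-2B ENZR, the enzalutamide-resistant line kept in 20 µM of this antiandrogen, and 1 from C4-2B Con, the sensitive line kept in DMSO in parallel. Both lines grew in the same serum-containing medium, and both titles carry the tag shC, whose meaning is not stated. Resistance and the drug in the medium go together, so their parts in any difference cannot be told apart.

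Resting cells hold cytosolic calcium far below that of the medium and of the endoplasmic reticulum. Plasma membrane channels and the receptors of the reticulum open to raise it, STIM proteins sense an emptied store and open ORAI channels, and SERCA, PMCA and SPCA pumps return calcium to the reticulum, the outside and the Golgi. In prostate cells TRPM8 is known as an androgen-induced cold and menthol channel, and TRPV6 as a calcium-selective epithelial channel studied in prostate cancer.

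The recovered totals were 23479051 reads for ENZR and 21024484 for Con. Values are CPM (a gene's reads per 1000000 of its library) after TMM scaling between the libraries, and 1 read was worth 0.0404 CPM in ENZR and 0.0490 CPM in Con. A gene was called measured at a mean of 1 CPM or more over both libraries, which 13803 genes reached. The log2 ratio below is ENZR over Con after adding 1 CPM to each, and "2-fold" refers to it, while other ratios and folds are plain CPM ratios with an exact 95% counting interval in parentheses. With 1 library per group there is no test and no p-value, and the intervals cover counting error only, not the spread between cultures. In bulk RNA a gene used by fewer cells of the culture and less of its RNA per cell cannot be told apart. All 10 prostate luminal markers were measured, with sums of 3657 CPM in ENZR and 4766 CPM in Con, though KLK3, prostate-specific antigen, was at 3.72 CPM in ENZR and 1428 CPM in Con. Of basal, stromal, leukocyte, endothelial and neuroendocrine markers, KRT5, TP63, COL1A2, CD3E, CDH5 and INSM1 had 0 reads in both. The 5 stromal markers summed to 45.8 CPM in ENZR and 18.4 CPM in Con, nearly all of it COL1A1. LUM, another of them, had 32 reads in ENZR and 0 in Con, and the part of other markers in the results below was not tested.

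Of the 78 rows, 33 were measured, 28 had reads below that level and 17 had none in either library. Among the 33, 5 were at least 2-fold higher in ENZR, ATP2A3, ATP2B1, ATP2B4, ITPR1 and TRPC1, against a background of 6.69% of all measured genes. Another 4 were at least 2-fold lower, TRPM8, RYR2, TRPV6 and ATP2C2, where the background was 4.64%. As shares of the 33 these are 15.2% and 12.1%. ATP2A3 and TRPC1 passed the filter only through ENZR and so had to differ, and the shares are a description of the rows that passed. Among the 33, 23 had a counting interval that left out 1 (69.7%), close to the background of 71.2%. The median log2 ratio was 0.10 over the 33 and -0.01 over all measured genes.

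**Figure D1:**
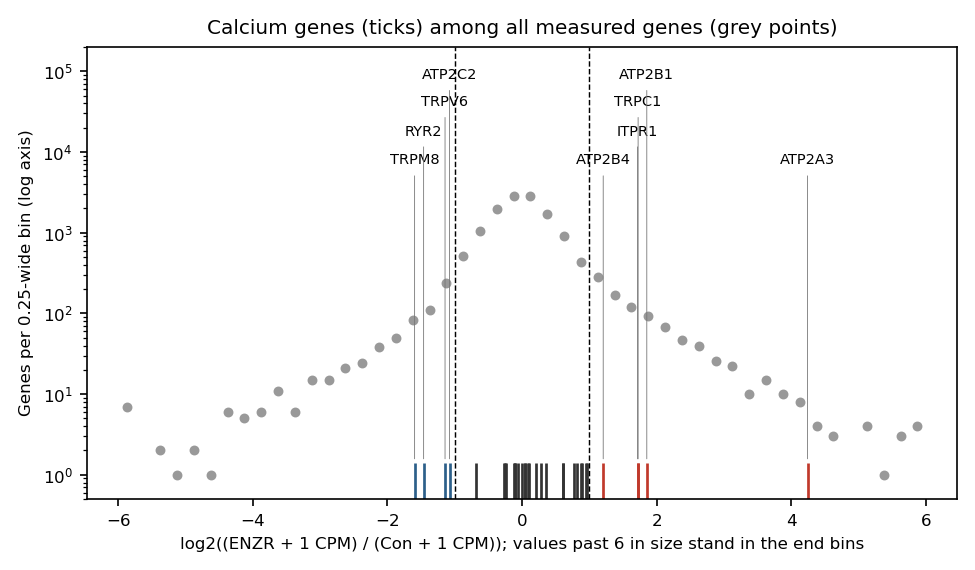
Log2 ratio of ENZR over Con for all 13803 measured genes (grey points, genes per bin on a log axis) and for the 33 measured calcium genes (ticks; red past 2-fold higher, blue past 2-fold lower, dashed lines at 2-fold). ATP2A3 stands alone at 4.24, while the other 8 named genes lie between -1.60 and 1.85, and most ticks lie within the dashed lines.

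Promoter sequences were at hand for 55 of the 78 rows, from RefSeq on GRCh38.p14, each window running from 250 bases before the start to 50 after it. They are shown for the pair of TRP channels that were lower and for the pump with the most reads among the higher genes. Their base composition does not represent the lower and higher genes, as given below. The windows are TRPM8 at chr2:233917123-233917422 on the plus strand, TRPV6 at chr7:142885696-142885995 on the minus strand and ATP2B1 at chr12:89709317-89709616 on the minus strand, each printed 5′ to 3′ along its gene. Capitals mark AGAACA, an arm of the androgen response element, TATAAA, the TATA box, and GGGCGG, the GC box, on either strand.
TRPM8: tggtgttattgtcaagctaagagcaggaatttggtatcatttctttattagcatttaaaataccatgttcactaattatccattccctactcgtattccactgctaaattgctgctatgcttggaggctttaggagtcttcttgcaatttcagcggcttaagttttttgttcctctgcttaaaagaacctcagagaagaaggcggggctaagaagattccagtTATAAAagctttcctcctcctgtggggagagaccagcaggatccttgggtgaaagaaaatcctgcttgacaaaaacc
TRPV6: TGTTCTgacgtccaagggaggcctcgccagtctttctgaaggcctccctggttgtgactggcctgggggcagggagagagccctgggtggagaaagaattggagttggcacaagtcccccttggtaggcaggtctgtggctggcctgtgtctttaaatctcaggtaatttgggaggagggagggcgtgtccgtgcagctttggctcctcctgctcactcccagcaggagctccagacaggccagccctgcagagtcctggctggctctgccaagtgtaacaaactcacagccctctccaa
ATP2B1: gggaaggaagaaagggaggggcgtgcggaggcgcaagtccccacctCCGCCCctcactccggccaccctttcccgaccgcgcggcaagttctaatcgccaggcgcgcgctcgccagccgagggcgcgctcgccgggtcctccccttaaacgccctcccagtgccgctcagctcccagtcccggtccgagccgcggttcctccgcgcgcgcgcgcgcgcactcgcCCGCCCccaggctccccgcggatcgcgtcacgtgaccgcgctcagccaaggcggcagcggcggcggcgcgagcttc

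TRPM8 held TATAAA at position -27, with 3 CpG dinucleotides in the window. TRPV6 held TGTTCT, the reverse complement of AGAACA, at its very edge, position -250, with 4 CpG dinucleotides. ATP2B1 held CCGCCC, the reverse complement of GGGCGG, at positions -204 and -26 among 48 CpG dinucleotides. Other genes past 2-fold differed from these: RYR2, lower, held 32 CpG dinucleotides, and ATP2B4, ITPR1 and TRPC1, higher, held 9, 19 and 19. ATP2A3 and ATP2C2, also past 2-fold, had no window at hand. GGGCGG was found in RYR2, ATP2B4 and TRPC1 and not in ITPR1. The median CpG count was 14 over all promoter windows and 19 over the 55 windows of calcium genes. Among all 27305 promoter windows, AGAACA was found in 14.9%, TATAAA in 12% and GGGCGG in 44.6%, and of the 55 windows of calcium genes, 4 held AGAACA, 1 TATAAA and 34 GGGCGG. No matches overlapped each other in the 3 windows. A match is a string of letters, not a shown binding site, and these windows hold no distant enhancers.

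The pumps are taken first. ATP2A3, the SERCA3 pump of the endoplasmic reticulum, was at 19.8 CPM in ENZR (489 reads) and 0.0980 CPM in Con (2 reads). It was barely detected in Con, and its ratio was 202 (55.6 to 1671), with only 2 reads behind the lower value. Its log2 ratio of 4.24 was the 20th highest of the 13803 measured genes, and with 1 CPM added it was the only one of the 33 past 4-fold, where the background was 1.91%. ATP2A2, the widely used SERCA2, was at 666 CPM in ENZR and 713 CPM in Con, a ratio of 0.933 (0.913 to 0.954), which lay above 1 when the TMM scaling was undone. ATP2A1, the SERCA of fast skeletal muscle, was at 2.55 CPM in ENZR and 3.23 CPM in Con, within counting error (0.549 to 1.13). Summed over the 3 SERCA genes, the level was 688 CPM in ENZR and 717 CPM in Con, a ratio of 0.960 that became 1.04 with the TMM scaling undone.

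Both measured plasma membrane pumps were higher in ENZR. ATP2B1, the housekeeping PMCA1, was at 372 CPM in ENZR and 102 CPM in Con, 3.64-fold higher (3.47 to 3.82). ATP2B4, PMCA4, was at 87.4 CPM in ENZR and 37.3 CPM in Con, 2.34-fold higher (2.16 to 2.55). The PMCA sum was 460 CPM in ENZR and 140 CPM in Con, a ratio of 3.29 (3.16 to 3.43). ATP2B2 and ATP2B3, the PMCA genes of neurons and sensory cells, had 0 reads in both libraries. ATP2B4 was close to the threshold, and with the median of its chromosomal neighbours subtracted its log2 ratio of 1.21 became 0.93.

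Of the Golgi pumps, only ATP2C2 was past 2-fold. ATP2C2, SPCA2, a pump of secretory epithelia, was at 22.5 CPM in ENZR and 48.6 CPM in Con, 2.16-fold lower (1.94 to 2.40). ATP2C1, the broadly used SPCA1, was at 136 CPM in ENZR and 126 CPM in Con, a ratio of 1.08 (1.02 to 1.13). The log2 ratio of ATP2C1, 0.10, was -0.21 with the median of its neighbours subtracted. The log2 ratio of ATP2C2, -1.08, was the nearest to the 2-fold line among the genes past it. It was -0.96 with TMM undone, -0.97 without the 10 most abundant genes, -0.96 with a pseudocount of 5 CPM and -0.87 with the neighbours subtracted.

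**Figure D2:**
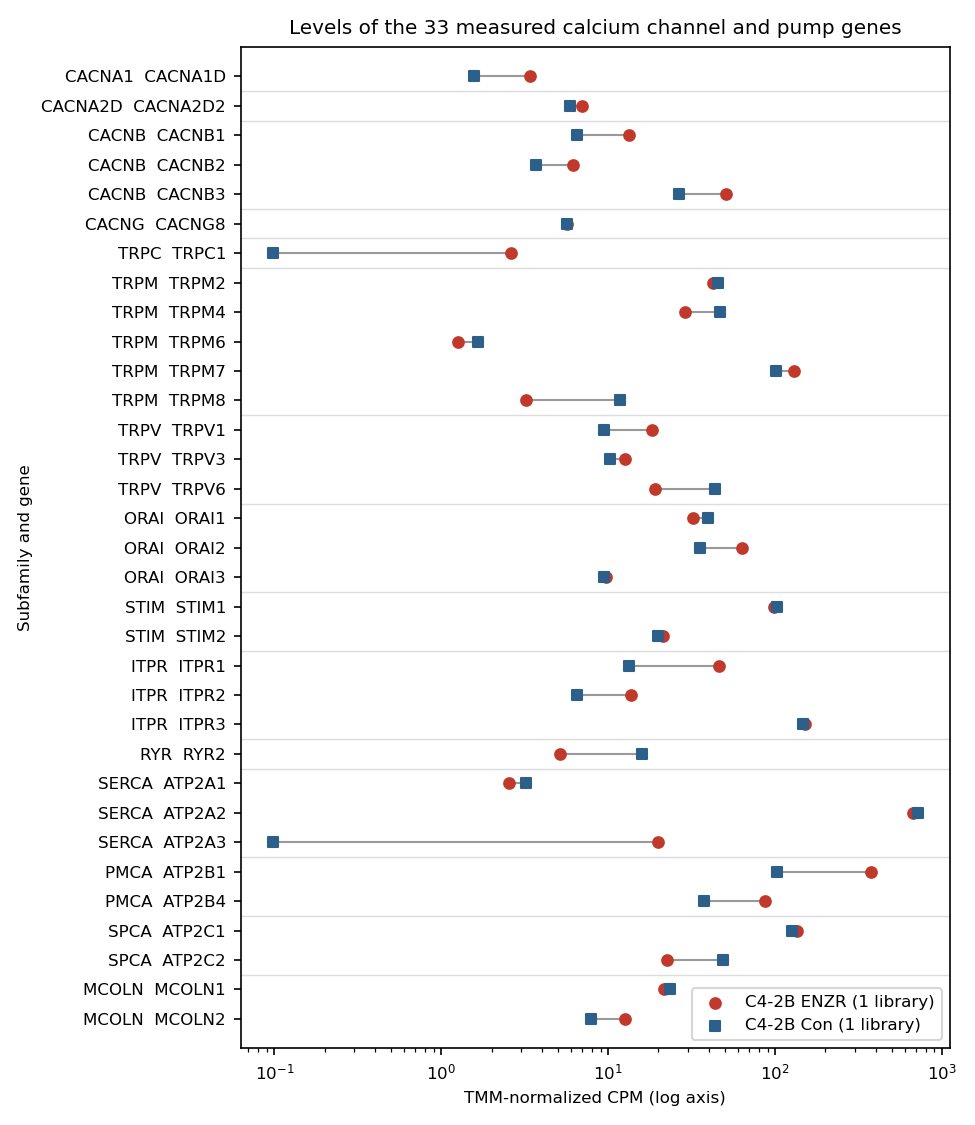
TMM-normalized CPM (log axis) of the 33 measured calcium genes in the ENZR library (red circles) and the Con library (blue squares), by subfamily, with no replicates. ATP2A3 and TRPC1 are near 0.1 CPM in Con, ATP2B1 is at 372 CPM in ENZR against 102 CPM in Con, and ATP2A2 is within 1.1 times between the libraries.

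Levels of different genes can be set side by side only per length of transcript, here CPM per kilobase of merged GENCODE v29 exons, which may differ from the annotation the authors used. On that scale ATP2A2 was the highest of the 33 in each library, at 117 in ENZR and 126 in Con. ATP2B1 came second in ENZR at 50.9, and 8th in Con at 14. ORAI1 (21.7 in ENZR, 26.3 in Con), STIM1 (21.5 and 22.5) and ATP2C1 (22.1 and 20.5) followed in ENZR and led ATP2B1 in Con. TRPV6 was 11th in ENZR at 6.5 and 6th in Con at 14.8. ATP2A3 reached 4.05 in ENZR, far below ATP2A2.

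Among the receptors that release calcium from the reticulum, ITPR1, the type 1 inositol trisphosphate receptor, was at 46.1 CPM in ENZR and 13.3 CPM in Con, 3.46-fold higher (3.03 to 3.96). ITPR2 was at 13.7 CPM in ENZR and 6.52 CPM in Con, a ratio of 2.1 (1.71 to 2.58). The log2 ratio of ITPR2, 0.96, was the nearest below the 2-fold line. It was 1.04 with a pseudocount of 0.25 CPM, 1.07 with TMM undone, 1.01 with upper quartile scaling and 1.07 without the 10 most abundant genes. ITPR3 was at 152 CPM in ENZR and 147 CPM in Con, with an interval from 0.985 to 1.09. Per kilobase ITPR3 was the highest of the 3 in each library, at 15.4 in ENZR and 14.9 in Con, while ITPR1 stood at 3.73 in ENZR and 1.08 in Con. The ITPR genes are related in sequence, and how their shared reads were split is not given in the sources used here.

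RYR2, the cardiac ryanodine receptor, was the opposite case, at 5.18 CPM in ENZR and 16 CPM in Con, 3.09-fold lower (2.52 to 3.83). RYR3 had 23 reads in ENZR and 18 in Con. RYR1, of skeletal muscle, had 16 reads in ENZR and 1 in Con, a ratio of 13.2 (2.05 to 554). ITPR1 and RYR2, which both open the store, were thus both past 2-fold, in opposite directions.

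None of the 5 store-operated entry genes was past 2-fold, where the background for either direction was 11.3%. STIM1, the main store sensor, was at 98.7 CPM in ENZR and 103 CPM in Con, and STIM2 at 21.4 CPM in ENZR and 20.0 CPM in Con, with intervals that held 1 for each. ORAI1, the pore subunit, was at 32.4 CPM in ENZR and 39.3 CPM in Con, a ratio of 0.823 (0.746 to 0.909). ORAI2 was at 63.7 CPM in ENZR and 35.6 CPM in Con, 1.79-fold higher (1.64 to 1.96). ORAI3 was at 9.71 CPM in ENZR and 9.41 CPM in Con (0.850 to 1.25). The intervals of ORAI1 and ORAI2 lay on opposite sides of 1. Of the exon bases of ORAI2, 5.40% overlap ALKBH4 on the other strand, and the use of strand in counting is not given in the sources used here.

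TRPM8 had the lowest log2 ratio of the 33, at -1.60. It was at 3.24 CPM in ENZR (80 reads) and 11.8 CPM in Con (241 reads), 3.65-fold lower (2.82 to 4.76). TRPM4, a calcium-activated channel for monovalent ions, was at 28.7 CPM in ENZR and 46.5 CPM in Con, 1.62-fold lower (1.47 to 1.79). Its log2 ratio of -0.68 was the nearest to the 2-fold line among the lower genes that did not pass it. TRPM7, a channel fused to a kinase that passes magnesium, was at 130 CPM in ENZR and 101 CPM in Con, a ratio of 1.29 (1.22 to 1.36). TRPM2, opened by ADP-ribose, was at 42.1 CPM in ENZR and 45.2 CPM in Con, and TRPM6 at 1.25 CPM in ENZR and 1.67 CPM in Con, both with intervals that held 1. TRPM5, the taste channel, fell below the filter with 2 reads in ENZR and 16 in Con, 9.69-fold lower (2.28 to 86.9). The TRPM sum was 206 CPM in ENZR and 207 CPM in Con.

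TRPV6 was at 19.0 CPM in ENZR and 43.3 CPM in Con, 2.27-fold lower (2.03 to 2.55). Its close relative TRPV5 had 0 reads in ENZR and 5 in Con. TRPV1, the capsaicin receptor, was at 18.2 CPM in ENZR and 9.46 CPM in Con, 1.92-fold higher (1.62 to 2.29), and 4.80% of its exon bases overlap SHPK. TRPV3, a warmth channel of skin, was at 12.6 CPM in ENZR and 10.2 CPM in Con (1.03 to 1.48). Within the TRPV genes, TRPV1 and TRPV6 thus had intervals on opposite sides of 1.

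TRPC1 was the only measured gene of its subfamily, at 2.63 CPM in ENZR (65 reads) and 0.0980 CPM in Con (2 reads). The ratio was 26.8 (7.13 to 226), at a low level in both, and its log2 ratio of 1.72 was 0.58 with a pseudocount of 5 CPM. TRPC4 and TRPC7 had 1 read in ENZR and 0 in Con, and TRPC2, TRPC5, TRPC6 and the irritant channel TRPA1 had 0 in both. Counts of 0 allow levels up to 0.121 CPM in ENZR and 0.147 CPM in Con.

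**Figure D3:**
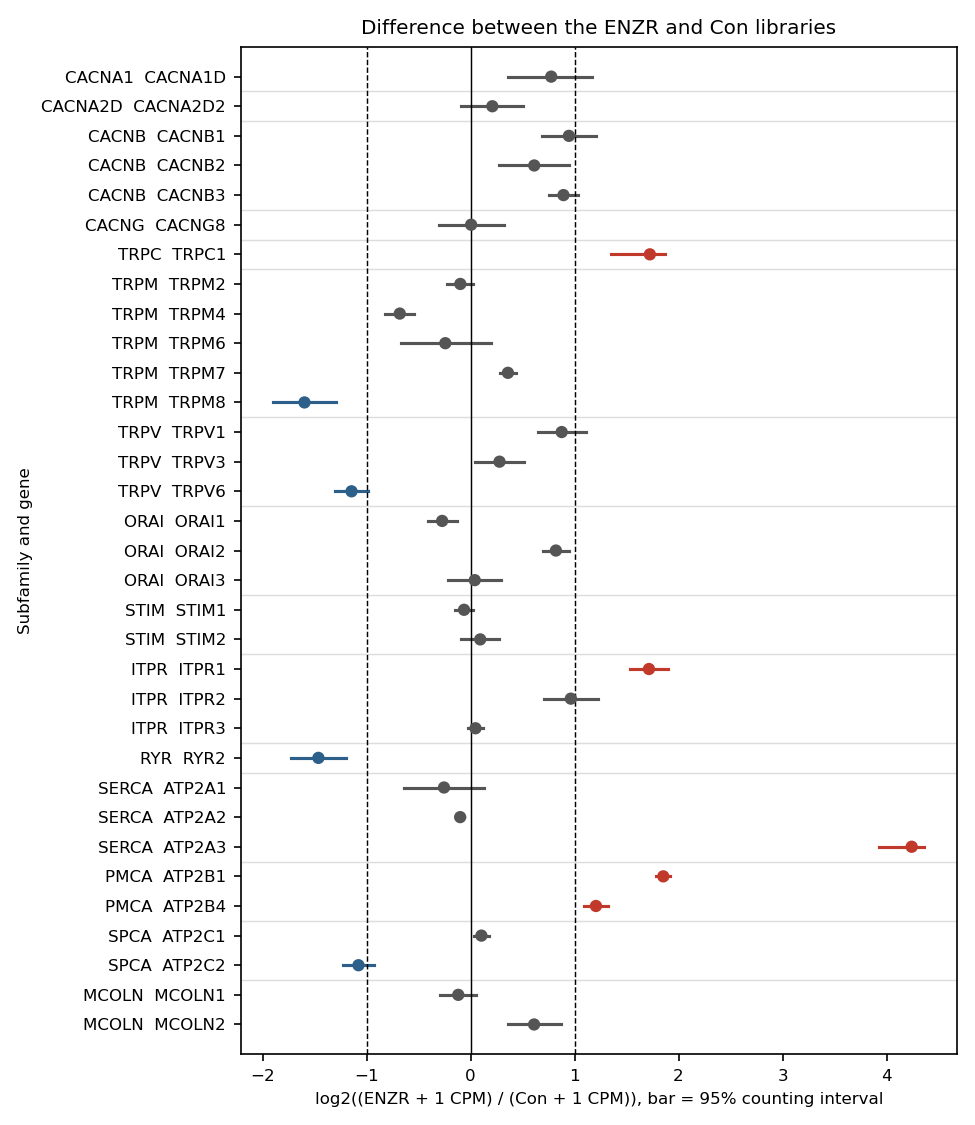
Log2 ratio of ENZR over Con (points) with 95% counting intervals (bars) for the 33 measured calcium genes, by subfamily; red and blue mark genes past 2-fold (dashed lines). The CACNB genes lie together between 0.61 and 0.95, whereas the ITPR, ORAI, TRPV and SPCA genes spread to different sides or sizes.

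The voltage-gated channels were scarce, and their auxiliary beta subunits were the best covered. CACNB3 was at 50.5 CPM in ENZR and 26.7 CPM in Con, 1.89-fold higher (1.71 to 2.09). CACNB1 was at 13.4 CPM in ENZR and 6.47 CPM in Con, 2.07-fold higher (1.69 to 2.55), and CACNB2 at 6.15 CPM in ENZR and 3.67 CPM in Con, 1.67-fold higher (1.26 to 2.24). These subunits bring the pore to the membrane, and all 3 measured genes were above 0 on the log2 scale. None was past 2-fold at a pseudocount of 1 CPM with the deposited scaling. With the TMM scaling undone, CACNB1 and CACNB3 passed it, at log2 ratios of 1.05 and 1.01. The summed CPM of the 4 CACNB genes was 70.3 in ENZR and 37.0 in Con, a ratio of 1.90 (1.74 to 2.07).

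Of the 10 pore genes, only CACNA1D, an L-type channel, was measured, at 3.4 CPM in ENZR and 1.57 CPM in Con, a ratio of 2.17 (1.43 to 3.37). Of its exon bases 12.2% overlap CHDH on the other strand, which had 1947 reads in ENZR and 1257 in Con, more than the 84 and 32 reads of CACNA1D. Below the filter, CACNA1B (N-type) had 31 reads in ENZR and 4 in Con, a ratio of 6.40 (2.26 to 24.9). CACNA1C (L-type) had 20 reads in ENZR and 3 in Con, a ratio of 5.50 (1.63 to 28.9), and CACNA1I (T-type) 34 in ENZR and 8 in Con, a ratio of 3.51 (1.59 to 8.77). CACNA1H, another T-type gene, had 0 reads in ENZR and 14 in Con, 5.65-fold lower against a floor of 3 reads per library. That fold leaves out counting error, and the counting interval of CACNA1H began at 4.02-fold lower. The sum of the 10 pore genes was 7.85 CPM in ENZR and 3.43 CPM in Con. Even the sum rests on 194 reads in ENZR and 70 in Con.

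The other auxiliary subunits were close between the libraries. CACNA2D2, an alpha2delta subunit, was at 6.96 CPM in ENZR and 5.88 CPM in Con (0.932 to 1.51), and CACNG8, a gamma subunit that also serves AMPA receptors, at 5.66 CPM in ENZR and 5.63 CPM in Con (0.780 to 1.3). CACNA2D2 shares 7.11% of its exon bases with CYB561D2 on the other strand. CACNG1, CACNG2, CACNG3, CACNG5, CACNG6 and CACNG7 had 0 reads in both.

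Of the mucolipins, calcium channels of lysosomes, MCOLN2 was at 12.6 CPM in ENZR and 7.89 CPM in Con, 1.59-fold higher (1.31 to 1.94). MCOLN1 was at 21.6 CPM in ENZR and 23.5 CPM in Con (0.810 to 1.04), and MCOLN3 had 3 reads in ENZR and 1 in Con. Apart from CACNA1B, CACNA1C, CACNA1H, CACNA1I, RYR1 and TRPM5, the genes with reads below the filter had under 10 reads in each library or an interval that held 1, and no gene below the filter had more than 34 reads in a library.

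The position of the genes was set beside their values through the 10 measured neighbours on each side, in RefSeq order. The neighbour medians ran from -0.35 to 0.50 over the 33 genes, and none reached 1 in size. They were -0.01 at ATP2A3, 0.15 at ATP2B1, 0.28 at ATP2B4, 0.29 at ITPR1 and -0.01 at TRPC1. At the lower genes they were 0.18 at TRPM8, 0.31 at RYR2, -0.14 at TRPV6 and -0.21 at ATP2C2. The genes past 2-fold were picked by the size of their ratio, so a difference larger than a median over neighbours was fixed in advance. The part of position in these differences was not tested.

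**Figure D4:**
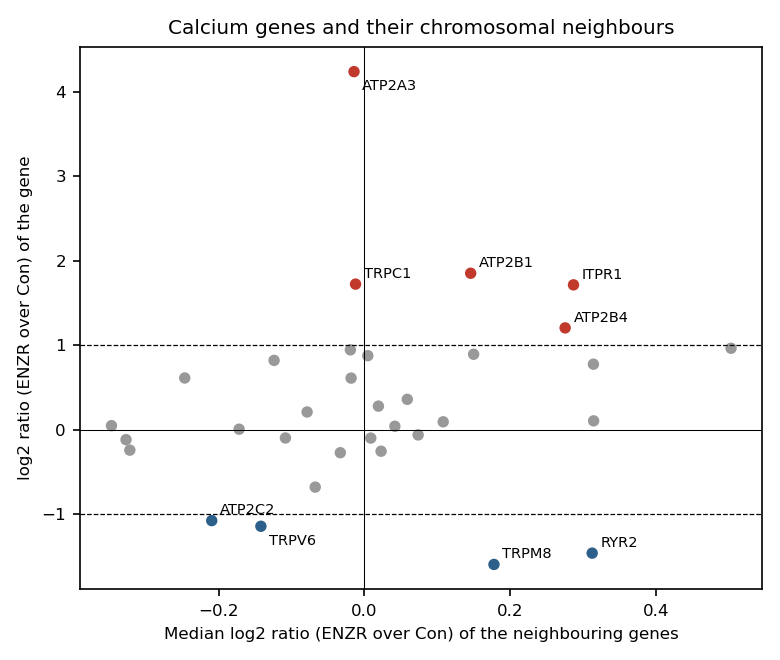
Log2 ratio of ENZR over Con of each measured calcium gene against the median log2 ratio of its neighbours, up to 10 measured genes on each side; red and blue mark genes past 2-fold (dashed lines). The neighbour medians run from -0.35 to 0.50. Medians over many genes spread less than single genes, so the spreads of the axes are not to be compared. TRPM8 and RYR2 lie below 0 in neighbourhoods above 0.

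Other calcium-handling genes, grouped into 7 lists, held 76 measured genes, of which 7 lay past 2-fold on the higher side and 5 on the lower, with a median of -0.04 that lay above 0 with the TMM scaling undone. These are 9.21% and 6.58% of the 76, near the backgrounds of 6.69% and 4.64%. Of these 12 genes, 6 had under 1 CPM in a library, passed the filter only through the other and so had to differ: SLC24A3, RCAN2, GEM and PLCL2 through ENZR, and EFCAB4B and PLCH2 through Con. The lower ones included genes with many reads. ASPH, whose locus also encodes the store proteins junctin and junctate, was at 306 CPM in ENZR and 2917 CPM in Con, 9.54-fold lower (9.31 to 9.77). PPP3CA, a catalytic subunit of the calcium-activated phosphatase calcineurin, was at 306 CPM in ENZR and 849 CPM in Con, 2.77-fold lower (2.70 to 2.85). EFCAB4B, a regulator of ORAI channels, had 2 reads in ENZR and 42 in Con, 25.4-fold lower (6.62 to 217).

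Of 19 measured effectors, 3 were past 2-fold on the higher side, where the background was 6.69%. On the lower side there was 1, PPP3CA, where the background was 4.64%. These are too few genes to compare with it, and RCAN2, among the higher, had to differ as said above. RCAN3, a calcineurin regulator, was at 31.8 CPM in ENZR and 12.4 CPM in Con, 2.56-fold higher (2.22 to 2.96), and RCAN2 had 48 reads in ENZR and 2 in Con, a ratio of 19.8 (5.19 to 168). NFATC4, a transcription factor that calcineurin activates, was at 5.58 CPM in ENZR and 1.86 CPM in Con, 3.0-fold higher (2.08 to 4.41). Their relatives NFATC1, NFATC3 and RCAN1 had ratios of 0.877, 0.776 and 1.29. NFATC2 had 45 reads in ENZR and 13 in Con, a ratio of 2.86 (1.51 to 5.77), near that of NFATC4. NFAT5 had a ratio of 1.61 (1.51 to 1.71). With 1 CPM added, neither NFATC2 nor NFAT5 passed 2-fold. CAMKK2, a kinase known as an androgen-induced gene in prostate cancer, was at 81.0 CPM in ENZR and 149 CPM in Con and did not pass 2-fold.

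Phospholipase C enzymes make the messenger that opens ITPR channels. Of 11 measured, 1 was at least 2-fold higher and 2 lower, too few to set against the backgrounds of 6.69% and 4.64%. PLCB1 was at 1.74 CPM in ENZR and 12.1 CPM in Con, 6.96-fold lower (5.02 to 9.86), and PLCH2 at 0.404 CPM in ENZR and 5.58 CPM in Con, 13.8-fold lower (7.24 to 29.6). PLCL2, a relative without catalytic activity, was at 4.61 CPM in ENZR and 0.294 CPM in Con, 15.7-fold higher (6.99 to 43.6). PLCG1, the form that receptor tyrosine kinases activate, was at 181 CPM in ENZR and 122 CPM in Con, below the 2-fold line.

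The 5 measured exchangers were all above 0, as were 49.5% of all measured genes, with a median of 0.62. SLC24A3, a potassium-dependent sodium-calcium exchanger, had 72 reads in ENZR and 1 in Con, a ratio of 59.4 (10.3 to 2380), and the plasma membrane exchangers SLC8A1, SLC8A2 and SLC8A3 had 0 reads in both. In the mitochondrial uniporter list, with 7 measured genes and a median of -0.41, CCDC109B (also called MCUB), a dominant-negative subunit, was at 11.9 CPM in ENZR and 2.89 CPM in Con, 4.11-fold higher (3.10 to 5.54). The pore gene MCU was at 43.0 CPM in ENZR and 41.7 CPM in Con. GEM, which inhibits voltage-gated channels through their beta subunits, had 49 reads in ENZR and 5 in Con, a ratio of 8.09 (3.24 to 26). CAMKK2, PLCG1, MCU, CANX, NFATC1, NFATC2, NFATC3, NFAT5 and RCAN1 are examples chosen after their values were seen. None of 10 measured store buffers and 6 measured cytosolic buffers and sensors passed 2-fold. These are too few genes to set against the background of 11.3% for either direction. Among the store buffers, calnexin (CANX) was at 426 CPM in ENZR and 805 CPM in Con, 1.89-fold lower.

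**Figure D5:**
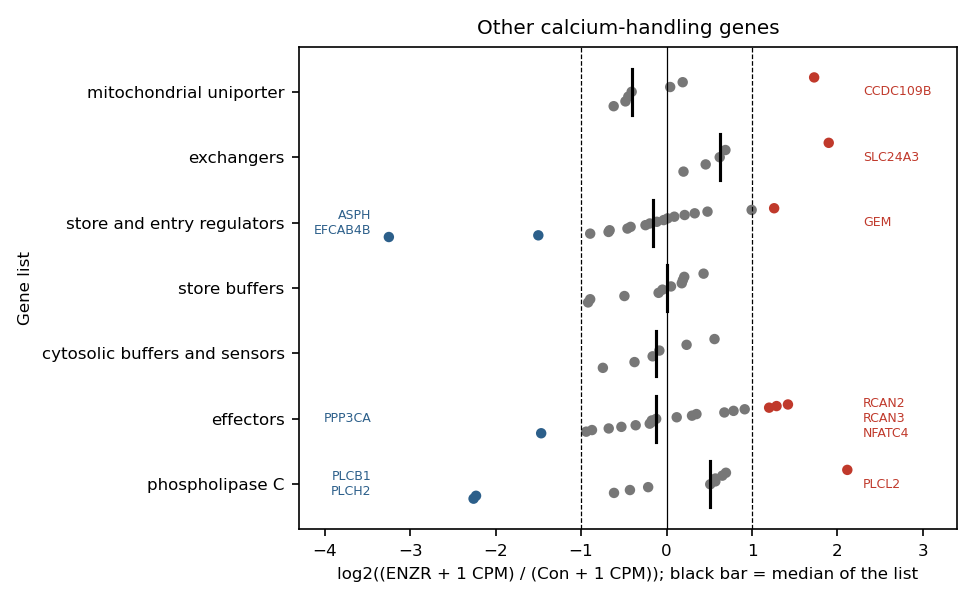
Log2 ratio of ENZR over Con for 76 measured genes in 7 further lists of calcium-handling genes (points; black bars are list medians, dashed lines 2-fold; genes past 2-fold are named at the sides). ASPH is the lowest at -3.25 and PLCL2 the highest at 2.12, and both buffer lists lie within the dashed lines.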

How the data were processed

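Total RNA of 1 library per line was sequenced as short single reads. The deposited signal per gene and library is TMM-normalized CPM, as the authors named their table. Bowtie2 2.1.0, RSEM 1.2.15, edgeR and hg19 are named in the submitters' processing notes, with no role or order, and the sources used here name neither annotation nor strand use.

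Every value was a whole multiple of 1 step per column (100% within 0.01 reads), so whole reads were recovered. RSEM estimates counts, so these may be rounded estimates. edgeR's quasi-likelihood test was not run, since 1 library per group leaves no residual degrees of freedom. Ratios received exact Clopper-Pearson intervals (95%), conditional on the summed reads, with scipy 1.17.1, tested on simulated reads. Against 0 reads, a fold was given against a floor of 3 reads per library, which leaves out counting error.

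The members and lists were chosen with earlier results of these data known. The genes given values are measured members past 2-fold, the most abundant of each subfamily, examples of the rest, unmeasured members with 10 or more reads in a library whose interval excludes 1, and up to 4 list genes past 2-fold in each direction. RefSeq GRCh38.p14 gave neighbours and promoters, and GENCODE v29 exon lengths and overlaps. Alternatives changed the pseudocount, filter, scaling, threshold and neighbourhood. Some items are not reported here.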

Additional observations from a re-analysis of the deposited data

How the results depend on the processing

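No replicate exists, so no library could be left out. No paired analysis was possible because each group has 1 library. The 9 genes past 2-fold kept their sign in each alternative that gave them a log2 ratio, of which the changed filters leave a gene's ratio as it is. Of the 33 measured genes, 8 crossed 0 under some alternative, ATP2A2, STIM1 and TRPM2 with the TMM scaling undone or without the 10 most abundant genes, and ATP2C1, STIM2, ORAI3, MCOLN1, TRPM6 and TRPM2 with the neighbours' median subtracted. With TMM undone, every ratio was 1.08 times larger, and the median log2 ratio of all measured genes was 0.10 instead of -0.01. The number of genes at least 2-fold higher was 5 in the report, and 8 with a pseudocount of 0.25 CPM, with TMM undone and without the 10 most abundant genes. ITPR2 and CACNB1 were added in each of these, CACNA1D with the pseudocount, and CACNB3 with TMM undone and without the 10 most abundant genes. The number of higher genes was 13 at a threshold of 1.5-fold and 1 at 4-fold, where 0 genes were lower. The background past 4-fold on the higher side was 1.91%. No background is given for 1.5-fold or for the changed pseudocounts, filters and scalings. Whether the counts under those settings are many or few therefore cannot be said. In the further lists, the 7 higher and 5 lower genes became 2 and 3 both with a pseudocount of 5 CPM and with a minimum mean of 5 CPM. The summed ratios that left their counting intervals did so with TMM undone and, in the second value, without the 10 most abundant genes: PMCA 3.57 and 3.55, ITPR 1.38 and 1.37, ORAI 1.36 and 1.35, TRPM 1.08 and 1.07, STIM 1.06 and 1.05, SERCA 1.04 and 1.04, SPCA 0.983 and 0.977. The TRPV ratio was 0.855 with TMM undone, and the SERCA ratio was 0.997 with upper quartile scaling. The sums of TRPM, STIM, SERCA and CACNG, all just below 1, lie above 1 once multiplied by 1.08. Depth limits genes at a few reads, such as TRPC1 and ATP2A3 in Con.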

Other observations

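Of the 7 non-coding rows at CACNA loci, 3 had reads. CACNA1C-AS1 had 4 reads in ENZR and 3 in Con, CACNA1C-AS2 had 5 reads in ENZR and 1 in Con, and CACNA1G-AS1 had 2 reads in ENZR and 0 in Con. Of their exon bases, 21.4% of CACNA1C-AS1 and 13.8% of CACNA1C-AS2 overlap exons of CACNA1C on the other strand, so reads of the partners cannot be told apart if counting ignored strand. CACNA1C-AS4, CACNA1C-IT2, CACNA1C-IT3 and CACNA2D3-AS1 had 0 reads in both libraries.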
